A study of Mus musculus with 9 samples.

Results

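Haematopoietic stem cells of old and of young wild-type mice were compared over 6 of the 9 libraries of the series, 3 from each age. The cells came from marrow flushed out of femora and tibiae, and the protocol gives the ages of the mice as 2 months or 22 to 24 months. Each library was made from 1000 cells sorted as negative for lineage markers and CD48 and positive for Sca1, c-Kit and CD150. No strain, sex, litter or day is given for the wild-type libraries, and the 3 libraries of a type are described as technical replicates, so p-values measure only the spread between these samples. The other 3 libraries, from old mice with a Sphk2 knockout, entered only 1 alternative fit. Both ages carry the genotype label Wild type. Of 52550 genes in the count table, 19726 had at least 20 counts in 2 or more libraries of either age and were tested. At that limit, 519 genes had exactly 20 counts in their second-highest library of the better group and were kept, and 552 had 19 and were left out.

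Stem cells of the marrow are mostly quiescent, and each can renew itself or give rise to all blood lineages. They carry short-lived transcripts of early response genes such as the AP-1 factors Fos and Jun, which many cells switch on within minutes of a stimulus and which handling can also induce. With age, mouse marrow is known to hold more cells of this surface phenotype, with a bias towards platelet and myeloid output and a weaker capacity to rebuild the blood. The comparison asks how the transcripts of these cells differ between the ages. In bulk RNA, fewer cells of a type and less RNA per cell cannot be told apart.

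The 2 groups of libraries differed in depth and in the share of reads from genes. Counts in genes were 74021822, 28088637 and 31031106 in young libraries 1 to 3, and 5115003, 3145167 and 3448125 in old libraries 1 to 3. Counts outside genes were 6.51% to 12.5% of all counts in young and 80.8% to 87.7% in old libraries (exact permutation p = 0.1, 2-sided, the smallest that 3 against 3 allows, as for every such test here). Olfactory receptor genes, which blood cells are not known to use, served as a measure of reads with no transcript behind them. Their exons held 1.09 to 1.43 reads per kb in young and 5.41 to 10.4 in old libraries (exact permutation p = 0.1), close to the density of reads outside exons in the old libraries (0.980 to 1.02 times). This background made up 0.203% to 0.586% of the counts in genes in young and 22.0% to 38.5% in old libraries, and was taken out of the library sizes. Levels are given as CPM, counts scaled to 1000000 of those that remain. A gene counts as above background where a library holds 20 or more of its reads and these reach 5 times or more what the background gives. That held for 8133 to 8983 genes in young and 1161 to 1620 genes in old libraries.

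**Figure D1:**
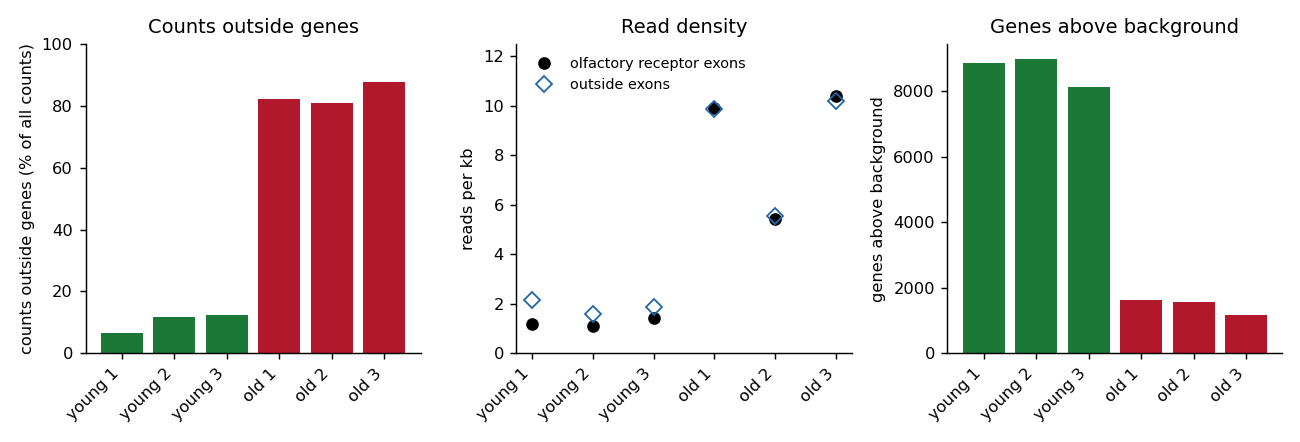
Share of counts outside genes (percent of all counts), read density (reads per kb) over olfactory receptor exons and outside exons, and number of genes above background in each of the 6 libraries. In the 3 old libraries both densities lie together, between 5.41 and 10.4 reads per kb, and at most 1620 genes are above background.

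The marrow identity of the sort was checked with 13 markers of stem cells. Their summed level was 2520 to 2936 CPM in young and 1885 to 3279 CPM in old libraries, where the background alone gives 184 to 409 CPM. The old sums came mostly from 1 or 2 genes that differed between libraries: Esam (1974 CPM) and Procr (593 CPM) in old library 1, Cd34 (869 CPM) and Gata2 (758 CPM) in old library 2, and Hlf (2232 CPM) in old library 3. In young libraries 12 of the 13 were above background in at least 2 libraries. In old libraries none was above background in 2, and 6 were above it in 1. Markers of B cells summed to 7.37 to 82.2 CPM in young and 98.2 to 182 CPM in old, and those of endothelium and stroma to 0.880 to 155 and 92.5 to 160 CPM. The background alone gives 67.8 to 151 and 71.0 to 158 CPM for these lists in the old libraries. Of 6 markers of T and NK cells, 6 of red cells and 5 of endothelium and stroma, none was above background in any old library. Markers of other cells that were above it in at least 1 old library were Cd79b of B cells, S100a8, Ngp and Camp of neutrophils and monocytes, and Gp9 and Itga2b of megakaryocytes. The lists of neutrophils with monocytes and of megakaryocytes summed to 24.7 to 91.9 and 368 to 840 CPM in young and to 58.7 to 969 and 60.4 to 510 CPM in old libraries. The part of these cells in the results was not tested.

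Over all tested genes, edgeR's quasi-likelihood test with Benjamini-Hochberg adjustment called 776 genes lower in old (3.93%) and 10450 higher (53%). The 776 lower genes were all above background in at least 2 young libraries, and 714 of them were above it in no old library. Of the higher genes 10319 were not above background in 2 old libraries. The median of their old counts was 1.30 times the background (quartiles 1.00 and 1.71). The remaining 131 higher genes (0.664%) were above background in at least 2 old libraries, 114 of them with ranges that did not overlap. These 131 depend on where the background is set. There were 401 with 3 times, 46 with 10 times the background, and 2636 when vomeronasal receptor genes took the place of olfactory receptor genes.

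The calls also depend on the genes in the fit. When only the 8446 genes above background in at least 2 libraries of a group were fitted, 1 gene was called lower, Fosb, and 8 higher. The other 58 genes named below as lower had adjusted p values between 0.0639 and 0.158 in that edgeR fit. With the background subtracted from the counts of all tested genes, 32 genes were called lower and 53 higher, 11 of the latter above background. Leaving out old library 1 left 365 lower genes and 62 higher genes above background, leaving out old library 2 left 489 lower, and leaving out old library 3 left 81 of the higher kind. Of the 59 genes named as lower, 53 were called in each of the fits that left out 1 library, and the other 6, Klf2, Rhob, Dnajb1, Kit, Rgcc and Hba-a1, are given with their values. TMM scaling and DESeq2, which set the median gene near no change although most tested genes are at background in old libraries, moved all fold changes down by medians of 3.48 and 3.76 log2 units and called 4772 and 6278 genes lower. Ranges of CPM that do not overlap are given beside the calls. They use the library sizes of the fit over all tested genes, so they depend on the scaling as well.

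Sequences are given first, of a family among the higher genes and then of the bases before the lower genes Fosb, Klf6, Odc1 and H3f3b. Of these lower genes, only Fosb was also called when only genes above background were fitted. Among higher genes, 13 share runs of sequence with Gm10800, a gene model on chromosome 2 (98666547 to 98667301, minus strand, GRCm38). They lie at 3 places: Gm10800 and Gm10801 on chromosome 2, Gm21738 on chromosome 14, and 10 gene models within 3000282 and 3038316 on chromosome 9. Bases 617 to 657 of the Gm10800 transcript occur in 12 of the 13 genes, and bases 82 to 147 in 7 of them. They are shown because reads of such stretches cannot be assigned to 1 locus. Genes were put in this family where they share a word of 31 bases with Gm10800. No base within the stretches is singled out by capitals.
Gm10800, bases 617 to 657: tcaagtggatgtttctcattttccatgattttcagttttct
Gm10800, bases 82 to 147: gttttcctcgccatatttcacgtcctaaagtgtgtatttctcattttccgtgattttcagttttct

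Fosb, Klf6, Odc1 and H3f3b were the measurable genes called lower both with and without background subtraction that also had over 1000 CPM in every young library. The 250 bases before their start sites (RefSeq, GRCm38.p6) are shown because these genes fell together. Capitals mark matches to CCAAT and TATAAA on either strand. TGACGTCA, the cAMP response element, and TGANTCA, the AP-1 element, were searched in the same way and had no match in these windows.
Fosb, chr7:19310046-19310295, minus strand: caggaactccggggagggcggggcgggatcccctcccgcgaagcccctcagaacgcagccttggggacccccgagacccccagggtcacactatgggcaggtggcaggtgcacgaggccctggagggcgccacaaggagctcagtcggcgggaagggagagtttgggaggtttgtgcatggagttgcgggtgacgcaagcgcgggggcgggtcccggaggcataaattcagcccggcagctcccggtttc
Klf6, chr13:5861239-5861488, plus strand: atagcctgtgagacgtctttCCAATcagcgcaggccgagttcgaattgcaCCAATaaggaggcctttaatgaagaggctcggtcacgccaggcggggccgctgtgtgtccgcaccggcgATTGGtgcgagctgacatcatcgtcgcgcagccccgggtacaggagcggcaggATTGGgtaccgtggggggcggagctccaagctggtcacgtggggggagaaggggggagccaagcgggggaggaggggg
Odc1, chr12:17544623-17544872, plus strand: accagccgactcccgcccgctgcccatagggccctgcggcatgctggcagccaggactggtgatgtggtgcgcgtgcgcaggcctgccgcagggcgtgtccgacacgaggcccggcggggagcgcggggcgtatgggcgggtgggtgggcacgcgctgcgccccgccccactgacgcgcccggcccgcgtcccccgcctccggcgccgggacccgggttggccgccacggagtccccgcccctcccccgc
H3f3b, chr11:116024505-116024754, minus strand: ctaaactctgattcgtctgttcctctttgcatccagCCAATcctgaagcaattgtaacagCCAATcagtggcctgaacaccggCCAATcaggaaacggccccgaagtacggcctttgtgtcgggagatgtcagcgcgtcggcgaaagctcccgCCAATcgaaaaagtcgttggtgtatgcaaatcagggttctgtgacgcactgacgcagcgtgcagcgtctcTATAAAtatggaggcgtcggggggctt
Klf6 and H3f3b each hold 4 CCAAT matches and H3f3b also holds 1 TATAAA. Over 27025 promoters of this length, 34.5% hold CCAAT, 13.0% TATAAA, 6.87% TGANTCA and 1.62% TGACGTCA. Of the 641 measurable genes called lower, as defined below, 506 have a promoter among these by gene symbol. Of the 506, 40.5% hold CCAAT, 7.51% TATAAA, 3.56% TGANTCA and 4.74% TGACGTCA. Of 768 measurable genes with such a promoter that were not called lower, the shares are 36.5%, 7.16%, 4.69% and 2.86%. This is a description with no test.

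Genes above background in all 6 libraries can be compared by level in each library. There were 289. Of the 300 genes above background in all 3 old libraries, these 289 (96.3%) were also above it in all 3 young ones. Entry needs detection in every old library, and 714 of the 776 genes called lower were above background in none. The median and the numbers of falls and rises in this set are thus a description, not a measure over all genes. The median log2 fold change over the 289 was 0.27 (quartiles -0.36 and 1.05), and 174 of them (60.2%) lay within 2-fold. In the fit over all tested genes 9 were called lower (3.11%) and 26 higher (9.0%), and 254 were not called. Without overlap of ranges, 38 were lower (13.1%) and 77 higher (26.6%). The number called lower was 15 without old library 1, 22 without old library 2 and 5 without any 1 young library.

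The 9 genes that fell within this set were H3f3b, Zfp36, Mif, Adgrg1, Sertad1, Klf2, Dnajb1, Rhob and Rgcc. H3f3b, which encodes the histone variant H3.3 that is laid down outside replication, had 6219, 5981 and 6034 CPM in young and 721, 175 and 119 CPM in old libraries. All old libraries lay far below the lowest young one, and the log2 fold change was -4.17 with an SE of 0.86 over 3 libraries a group (adjusted p = 0.0022 by Benjamini-Hochberg in the edgeR quasi-likelihood test, as for every adjusted p below). Zfp36, an RNA-binding protein that speeds the decay of AU-rich messages, had 7888, 5502 and 6702 CPM in young and 128, 1568 and 806 CPM in old libraries. It fell by 3.01 on the log2 scale (SE 0.87, adjusted p = 0.0101, same edgeR test), without overlap, though the old libraries differed widely among themselves. Mif, a cytokine with many cellular sources, had 452, 457 and 502 CPM in young against 18.2, 14.3 and 37.3 CPM in old libraries (log2 -4.34 ± 1.03, adjusted p = 0.0035, same edgeR test). Adgrg1, an adhesion receptor that marks stem cells, was at 1433, 1673 and 2626 CPM in young and 93.5, 210 and 320 CPM in old libraries. Sertad1, a transcriptional coregulator, was at 360 to 401 CPM in young and 19.1 to 39.6 CPM in old. Their fold changes were -3.20 and -3.66.

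Klf2, Dnajb1, Rhob and Rgcc also fell within this set, but their calls were lost when single libraries were left out. Klf2, a Krueppel-like factor tied to quiescence in blood cells, had 1550, 1822 and 1678 CPM in young and 430, 236 and 322 CPM in old libraries (log2 -2.35 ± 0.78, edgeR adjusted p = 0.0207). Dnajb1, a co-chaperone of heat shock protein 70, had 2411, 2731 and 2539 CPM against 687, 382 and 662 CPM (log2 -2.15 ± 0.72, edgeR adjusted p = 0.0223). In both genes the ranges were apart, and neither was called in edgeR fits without any 1 young library, where Klf2 was at -2.41 to -2.29 and Dnajb1 at -2.19 to -2.10. Rhob, a small GTPase, lost its call in the same way (-2.48, and -2.66 to -2.25 without a young library). Rgcc, a regulator of the cell cycle, lost it without any young library or without old library 3 (-3.17, and -3.29 to -2.82).

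Ribosomal protein genes had a median fold change near 0 relative to the counts above background. As a share of all counts in genes, background included, they took 26.0% to 27.7% in young and 12.6% to 22.5% in old libraries, without overlap (exact permutation p = 0.1). Of 82 tested, 75 were above background in all 6 libraries, with a median log2 fold change of 0.04 and 40 members on the higher side. Rplp1, of the large subunit stalk, had 12530, 18640 and 25130 CPM in young and 22180, 22700 and 11600 CPM in old libraries, ranges that overlapped. The 1 member called lower (5 without old library 2) was Rpl22l1, a paralog of Rpl22, at 132, 221 and 142 CPM in young and 5.46, 4.48 and 18.9 CPM in old libraries (log2 -4.11 ± 1.12, edgeR adjusted p = 0.0075). Gapdh of glycolysis and Actb of the cytoskeleton also had like levels. Gapdh was at 2736, 2070 and 1861 CPM in young and 2425, 2475 and 2505 CPM in old, and Actb at 1412, 1139 and 1343 CPM against 1051, 1556 and 1412 CPM. Their log2 differences were 0.15 ± 0.63 and 0.05 ± 0.70. Under TMM scaling Gapdh and Actb were called lower by edgeR (-3.39 and -3.47), and so were all 78 measurable ribosomal protein genes, so like levels hold only relative to the counts above background.

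Levels of genes of the mitochondrial genome lay on the higher side. The background was set from olfactory receptor genes, which lie in the nuclear genome, so it does not measure reads of mitochondrial DNA. The part of such reads in these levels was not tested. Of 17 tested, 15 were above background in all 6 libraries, 14 of them with a positive fold change, and the median was 1.29. These genes encode subunits of the respiratory chain and the RNAs of the mitochondrial ribosome. mt-Cytb, of complex III, had 6254, 7617 and 4043 CPM in young and 25720, 15240 and 15000 CPM in old libraries, with no overlap. mt-Rnr2, the large ribosomal RNA, had 1600, 1354 and 1553 CPM against 5047, 5205 and 5228 CPM. They were the 2 members called higher (log2 1.64 ± 0.51 and 1.78 ± 0.60, edgeR adjusted p = 0.0153 and 0.0240), but reversed under TMM scaling (-1.80 and -1.72) and DESeq2 (-2.17 and -2.11). Neither was called in edgeR fits without any 1 young library (mt-Cytb 1.43 to 1.86, mt-Rnr2 1.71 to 1.83). mt-Nd1, of complex I, had ranges apart (2625, 3298 and 2608 CPM against 5498, 7235 and 6852 CPM), and those of mt-Co1, of complex IV, overlapped (7146 to 10580 CPM against 4088 to 11240 CPM). By share of all counts in genes, mitochondrial genes took 2.20% to 3.23% in young and 2.77% to 5.07% in old libraries (exact permutation p = 0.3).

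**Figure D2:**
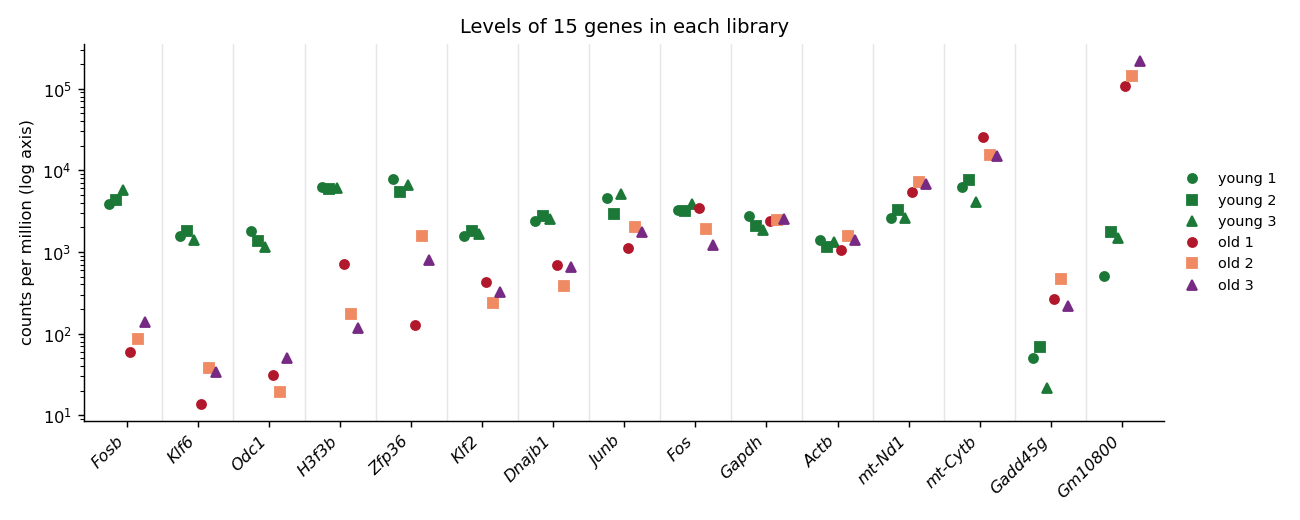
Levels of 15 genes in each of the 6 libraries in CPM on a log axis (green, young; red, orange and purple, old libraries 1 to 3). The ranges of Fosb, Klf6, Odc1 and H3f3b lie apart by the most downwards and that of Gm10800 upwards, while Fos, Gapdh and Actb overlap.

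Most genes could not be compared in this way, so their detection was described for the genes whose young level would have been seen in the old libraries. A gene is called measurable where it was above background in all 3 young libraries and its mean young level would give each old library 20 counts or more, and 5 times its background or more. That held for 1669 genes. They were chosen by their young level, so a count of falls among them is a description and not support for a fall. Of them 820 (49.1%) were above background in no old library, 437 (26.2%) in 1, 160 (9.59%) in 2 and 252 (15.1%) in all 3. The test called 641 lower (38.4%) and 10 higher (0.599%), and ranges were apart for 858 lower (51.4%) and 47 higher (2.82%). Without old library 1 the number called lower was 346. The median log2 fold change over the 1669 was -2.30, against 4.57 over all 19726 tested genes, most of which were at background.

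Above 100 CPM, the share of genes detected in the old libraries rose with the young level. Of 55 measurable genes with at least 3000 CPM in young, 98.2%, 100% and 98.2% were above background in old libraries 1 to 3. At 1000 to 3000 CPM the shares were 87.8%, 95.1% and 79.3% of 82 genes, and at 100 to 300 CPM they were 17.9%, 26.0% and 12.2% of 754 genes. Below 100 CPM the order was different. The 497 genes at 30 to 100 CPM were detected at 23.5%, 23.7% and 15.1%, more often in old libraries 1 and 3 than those at 100 to 300 CPM, and the 63 genes at 10 to 30 CPM at 65.1%, 60.3% and 49.2%. The genes measurable at 10 to 30 CPM are short, with a median of 495 exon bases against 3192 at 100 to 300 CPM.

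**Figure D3:**
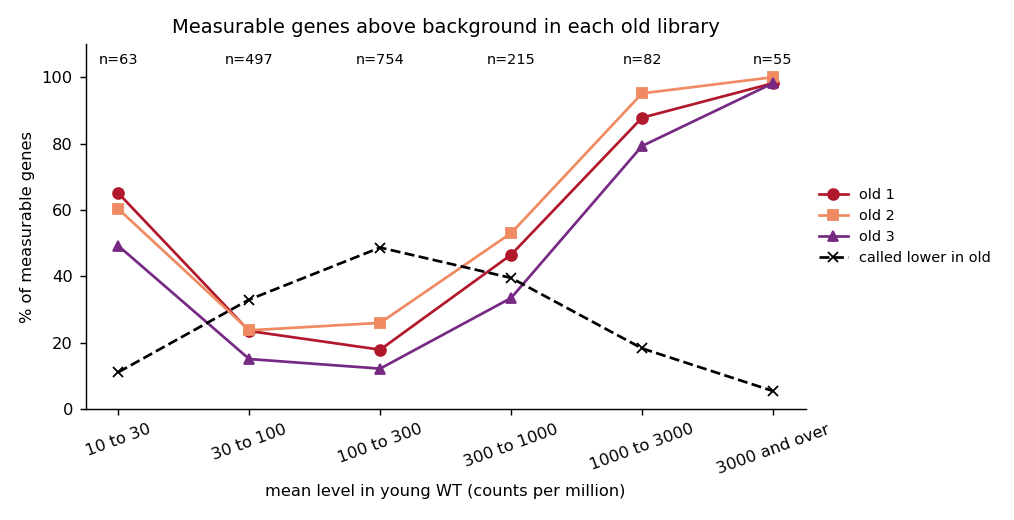
Share of measurable genes above background in each old library, and share called lower (dashed), by mean level in young libraries in CPM; n is the number of genes in each class. From 100 to 300 CPM upwards each old library gains in detection, to 98.2% or more at 3000 CPM and over.

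Genes seen in an old library lay on both sides of their young level there. In old library 1, 521 measurable genes were above background, 46.1% of them within 2-fold of the young mean, 30.3% more than 2-fold above and 23.6% below 0.5 of it. The genes not above background had a median of 7.42% of the young mean. In old libraries 2 and 3 the numbers were 601 and 391 genes, with 50.3% and 49.6% within 2-fold, and medians of 7.53% and 14.1% for the rest. The genes seen differed between old libraries. Of the 437 above background in 1 old library, 145 were seen in library 1, 219 in library 2 and 73 in library 3, and in 228 that library was above the highest young one. Over the 289 genes seen everywhere, the SD of log2 CPM had a median of 0.33 among young and 0.64 among old libraries, and was larger among the old in 217 (75.1%).

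Stem cell genes were among those that differed between old libraries. Hlf, a transcription factor of stem cells, had 373, 209 and 430 CPM in young and 37.4, 18.7 and 2232 CPM in old libraries. Gata2, a factor that stem cell upkeep needs, had 1083, 866 and 1077 CPM in young and 25.2, 758 and 56.6 CPM in old libraries. Each was above background in 1 old library only, a different one. The surface proteins Esam (67.5, 119 and 71.0 CPM in young) and Procr (145, 52.9 and 41.4 CPM) were seen only in old library 1, at 1974 and 593 CPM. Cd34, at 162 to 189 CPM in young, was seen only in old library 2, at 869 CPM. None of these 5 was called, and each value rests on 1 old library. Without the library that held it, edgeR put Hlf at -3.58 and Gata2 at -4.63, both called lower, and Esam at -3.19, Procr at -2.97 and Cd34 at -2.68, not called. With all libraries Gata2 was at -1.85 and the other 4 were positive. Genes of general use behaved alike. Dazap2, an adaptor protein, was at 397 to 748 CPM in young and at 4297, 17.5 and 23.1 CPM in old libraries. Eif3h, a subunit of translation initiation factor 3, was at 376 to 736 CPM in young and at 13.8, 1585 and 25.5 CPM in old.

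**Figure D4:**
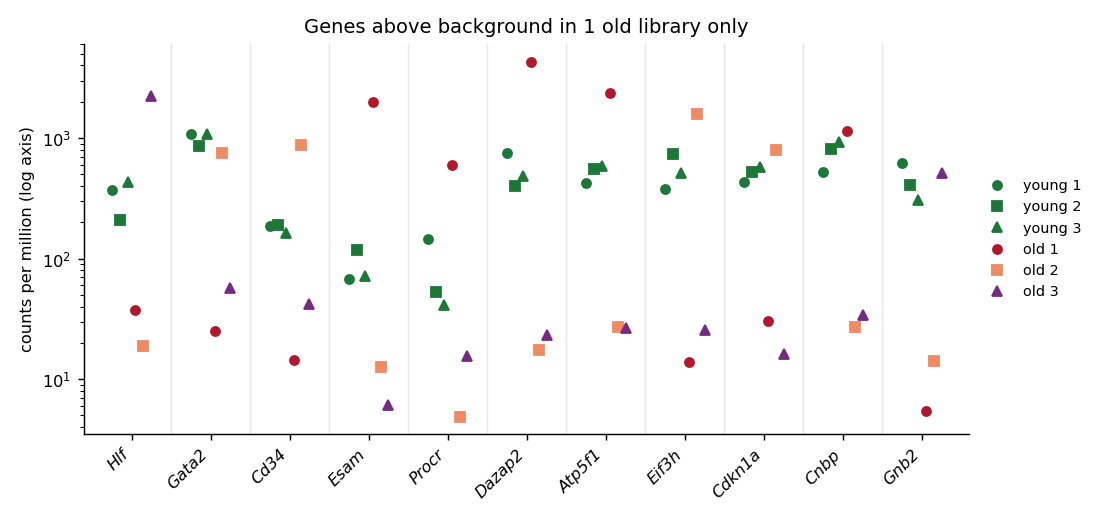
Levels of 11 genes that were above background in 1 old library only, in CPM on a log axis, with the symbols of the plot of 15 genes. In each gene 1 old library lies near or above the 3 young ones and the other old libraries lie at 56.6 CPM or below.

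The gate itself rests on Kit, Ly6a (Sca1) and Slamf1 (CD150). Kit, the receptor for stem cell factor, had 585, 486 and 451 CPM in young and 38.2, 40.3 and 120.7 CPM in old libraries, none of the latter above background. It was called lower (log2 -2.93 ± 0.98, edgeR adjusted p = 0.0226), but not without any 1 young library (-3.01 to -2.82). Ly6a was at 26.9, 21.7 and 4.70 CPM in young and 5.97, 7.74 and 20.3 CPM in old, overlapping and at background in all old libraries. Slamf1 had 0.758, 12.6 and 8.88 CPM in young and 11.4, 18.7 and 497 CPM in old libraries and was above background only in old library 3. It was called higher (log2 4.57 ± 1.69, edgeR adjusted p = 0.0364) through that library, and was at 1.03 and not called without it. Of 10 measurable surface receptors 4 were called lower with a median of -1.97 (1 without old library 2 or any 1 young library), and of 10 measurable stem cell transcription factors 2 were, with a median of -1.34 (1 without young library 2 or 3, 4 without old library 2). Gfi1b, a repressor of stem cell and megakaryocyte-erythroid genes, fell from 231, 119 and 63.9 CPM to 5.71, 12.2 and 7.08 CPM (log2 -4.05 ± 1.10, edgeR adjusted p = 0.0073).

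The gene lists below are read beside all measurable genes, of which 38.4% were called lower with a median of -2.30. That share varied with the young level. It was 11.1% at 10 to 30 CPM, 33.0% at 30 to 100, 48.7% at 100 to 300 and 39.5% at 300 to 1000 CPM. At 1000 to 3000 CPM it was 18.3%, and at 3000 CPM and over 5.5%. The lists were not matched for level. Higher calls that were not above background are left out of the counts per list. Of 18 measurable members of the AP-1 and Egr list 10 were called lower (55.6%; 8 to 10 without 1 library), none was called higher, and the median was -2.79. Fosb, an AP-1 subunit (chromosome 7, 19302696 to 19310051, GRCm38), had 3836, 4345 and 5690 CPM in young and 59.0, 86.4 and 137 CPM in old libraries. The groups were far apart, and the log2 fold change was -5.62 ± 0.81 (edgeR adjusted p = 0.0021). Fosb was called lower in all 23 alternative fits. Ier3, an early response gene that modulates survival, was at 510, 602 and 520 CPM in young and 3.90, 8.56 and 17.45 CPM in old libraries. Atf3, a stress-induced repressor, was at 371, 855 and 359 CPM against 11.7, 19.96 and 51.4 CPM, and Srf, a factor that drives many early response promoters, at 132, 154 and 122 CPM against 12.5, 8.96 and 16.04 CPM. Their fold changes were -5.78, -4.26 and -3.45 (edgeR adjusted p = 0.0021, 0.0055 and 0.0105).

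The partners of Fosb stood elsewhere. Fos had 3225, 3203 and 3874 CPM in young and 3435, 1918 and 1214 CPM in old libraries, with overlap (log2 -0.65 ± 0.66, edgeR adjusted p = 0.444). Jund overlapped as well (1166 to 2312 CPM against 960 to 1655 CPM), and Jun spread from 50.9 to 1858 CPM among old libraries around the 1092 to 1707 CPM of the young ones. Junb, with 4595, 2946 and 5170 CPM against 1107, 2000 and 1780 CPM, had ranges apart and was not called (log2 -1.38 ± 0.65, edgeR adjusted p = 0.0909). Egr1 had 605, 110 and 6870 CPM in old libraries, on both sides of its 3901 to 4640 CPM in young. The difference between the fold changes of Fosb and Fos was not tested.

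All 4 measurable Krueppel-like factors were called lower (3 or 4 without 1 library; median -4.81). These zinc finger factors respond to stimuli and regulate quiescence and differentiation. Klf6 (chromosome 13, 5861482 to 5870394, GRCm38) had 1562, 1798 and 1417 CPM in young and 13.8, 37.5 and 34.0 CPM in old libraries. At its young level it would have given 3376 to 6130 counts in the old libraries, where 53, 92 and 72 were found against 23.8 to 45.7 from background. Its log2 fold change was -5.81 ± 0.97 (edgeR adjusted p = 0.0021). Klf4 had 815, 1068 and 942 CPM against 29.9, 17.1 and 43.9 CPM and Klf10 had 260, 140 and 646 CPM against 1.56, 14.3 and 25.9 CPM, again without overlap (log2 -4.96 and -4.65).

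Feedback and stress genes were called lower at shares on either side of the 38.4% of all measurable genes. Spry1, an inhibitor of growth factor signalling, was at 170, 375 and 319 CPM in young and 0.779, 3.67 and 11.3 CPM in old libraries (log2 -5.79 ± 1.34, edgeR adjusted p = 0.0031), 1 of 3 lower calls among 6 measurable Dusp and Sprouty genes (1 without old library 1). Ddit3, which encodes the stress factor CHOP, was at 235, 248 and 136 CPM against 2.34, 2.44 and 8.02 CPM. Herpud1, of endoplasmic reticulum quality control, was at 360, 488 and 716 CPM against 9.09, 6.11 and 25.0 CPM. They were 2 of 4 lower calls among 11 measurable genes of the endoplasmic reticulum and integrated stress response (36.4%; 3 to 5 without 1 library), with a median of -1.40. Heat shock genes had 4 lower calls among 14 (28.6%; 1 without old library 1, 1 without young library 2 or 3). The constitutive chaperone Hspa8 (2775 to 3668 CPM against 1081 to 3049 CPM) and Hsp90aa1 (1152 to 2678 CPM against 275 to 4291 CPM) overlapped.

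Of 8 measurable growth arrest genes 3 were called lower (37.5%), near the share of all measurable genes. Trp53, the tumour suppressor p53, was at 185, 143 and 350 CPM in young and 2.6, 24.4 and 17.9 CPM in old libraries, and Btg1, an antiproliferative factor, at 293, 245 and 234 CPM against 7.79, 25.7 and 18.9 CPM (log2 -3.92 and -3.88, edgeR adjusted p = 0.0132 and 0.0072). Gadd45g, a growth arrest gene of the stress response, was at 50.5, 69.6 and 21.5 CPM in young and 264, 463 and 220 CPM in old libraries. It was the 1 measurable member of that list called higher (log2 2.74 ± 1.01, edgeR adjusted p = 0.0359). That call was lost without any 1 young library or old library 2 (2.36 to 3.13), and the sign turned under TMM scaling (-0.68) and DESeq2 (-0.98). Mcl1, a survival factor that stem cells need, was at 1447, 1131 and 1871 CPM in young and 144, 13.4 and 41.5 CPM in old (log2 -4.48 ± 1.09, edgeR adjusted p = 0.0040).

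Most measurable replication genes were called lower. Pcna, the sliding clamp of replication, was at 736, 743 and 385 CPM in young and 4.42, 10.6 and 35.4 CPM in old libraries (log2 -5.21 ± 1.19, edgeR adjusted p = 0.0029). It was 1 of 6 lower calls among 7 measurable replication genes (median -3.06), of which 2 were left without old library 1. Rfc2, of the clamp loader, was at 282, 140 and 171 CPM against 30.7, 9.37 and 23.1 CPM. Among 9 measurable genes of G2 and mitosis 5 were called lower (4 to 6 without 1 library; median -3.44). They include Ube2c, which works with the anaphase-promoting complex (235, 308 and 216 CPM against 3.90, 10.2 and 8.02 CPM) and Stmn1, which destabilises microtubules (542, 532 and 392 CPM against 4.68, 19.96 and 15.1 CPM), with fold changes of -5.10 and -5.21. Tuba1b and Hmgb2, called lower at -4.42 and -3.49, are also used outside the cell cycle. The G1 cyclin gene Ccnd3 was at 283, 202 and 242 CPM against 15.1, 12.2 and 36.8 CPM (log2 -3.51 ± 1.04, edgeR adjusted p = 0.0119). In all of these, no gene but Tuba1b and Hmgb2 was above background in any old library.

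Among other abundant genes of growth, Odc1, the rate-limiting enzyme of polyamine synthesis (chromosome 12), had 1831, 1348 and 1154 CPM in young and 30.9, 19.6 and 50.5 CPM in old libraries (log2 -5.42 ± 0.97, edgeR adjusted p = 0.0021). Hist1h1c, a linker histone, had 922, 774 and 770 CPM against 7.01, 12.2 and 21.2 CPM (log2 -5.93 ± 1.06, edgeR adjusted p = 0.0021), 1 of 5 lower calls among 10 measurable histone genes (3 without old library 3). Translation factors had 5 lower calls among 25 (3 without young library 1, 11 without old library 2) and a median of -1.13. The helicase Eif4a2 (872, 1096 and 603 CPM against 15.8, 56.2 and 42.0 CPM) and Eif3e (370, 273 and 92.6 CPM against 18.96, 13.9 and 17.45 CPM) were among them, while Eef1a1 overlapped at 9393 to 15000 CPM against 5453 to 10850 CPM. Tpt1, a growth-linked transcript, was at 27960 to 40830 CPM in young and 11880 to 22230 CPM in old, with ranges apart and no call (edgeR adjusted p = 0.0627).

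Nuclear genes of oxidative phosphorylation, whose products join those of the mitochondrial genome, had 17 lower calls among 58 measurable members (13 to 20 without 1 library; median -1.59), and 41 were not called. Uqcrfs1 and Cyc1, of complex III like mt-Cytb, were at 216, 330 and 50.7 CPM and at 75.2, 107 and 56.1 CPM in young. In old libraries they were at 3.64, 6.52 and 8.96 CPM and at 3.12, 3.67 and 3.77 CPM, all at background (log2 -4.97 and -4.50, edgeR adjusted p = 0.0039 and 0.0041). Atp5a1, of the ATP synthase, was at 325, 409 and 480 CPM against 8.57, 14.7 and 17.9 CPM (log2 -4.88). In glycolysis 1 of 12 measurable enzymes was called lower (4 without old library 3), Ldha (431, 599 and 626 CPM against 23.6, 89.6 and 38.7 CPM). Proteasome subunits had 8 lower calls among 21 (38.1%, median -2.40; 2 without old library 1), close to the share and median of all measurable genes. They include Psma6 (352, 158 and 100.1 CPM against 6.75, 5.70 and 3.77 CPM) and Psmb6. Of 26 actin genes 8 were called lower (7 to 11 without 1 library), with Coro1a at 555, 639 and 430 CPM against 23.4, 21.2 and 13.7 CPM.

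The series title names sphingosine metabolism and ferroptosis, so these genes were read as well. Sphk2, which phosphorylates sphingosine, was at 22.8, 3.15 and 18.7 CPM in young and 5.19, 0.407 and 16.5 CPM in old libraries, overlapping and above background in no old library (log2 -1.02 ± 1.30, edgeR adjusted p = 0.548; -0.46 without old library 2 and -2.38 without old library 3, neither called). S1pr1, the receptor that guides exit towards sphingosine 1-phosphate, was at 258, 17.5 and 372 CPM in young and 2.08, 2.04 and 8.96 CPM in old (log2 -5.64 ± 1.46, edgeR adjusted p = 0.0055). Of 4 measurable ceramide and sphingolipid genes 3 were called lower (3 or 4 without 1 library): Cers2, a ceramide synthase, Ormdl3, a brake on the first step of the pathway, and Gltp, a glycolipid carrier (log2 -3.58, -4.06 and -4.31). Of 8 measurable ferroptosis genes 2 were called lower (3 without old library 2), with Vdac2, a channel of the outer mitochondrial membrane, at 491, 311 and 515 CPM against 16.6, 11.4 and 36.8 CPM. Gpx4, which detoxifies lipid peroxides, was at 888, 999.9 and 983 CPM in young and 1723, 26.1 and 34.0 CPM in old libraries, so 1 old library was above and 2 were below all young ones (log2 -0.69, not called; -4.99 and called lower by edgeR without old library 1). The ferritin subunits Fth1 (1891, 2132 and 2633 CPM against 1029, 1455 and 1164 CPM) and Ftl1 (575 to 701 CPM against 52.8 to 284 CPM) had ranges apart with no call (edgeR adjusted p = 0.311 and 0.131). Prdx4, a peroxiredoxin of the endoplasmic reticulum, fell from 178, 102 and 99.1 CPM to 5.71, 12.6 and 5.66 CPM (log2 -3.98), 1 of 5 lower calls among 14 antioxidant genes (1 without old library 2).

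Lineage genes followed. Pf4, a platelet chemokine, had the largest fall of the genes named by rank, from 90.9, 220 and 74.9 CPM to 0, 1.63 and 3.30 CPM (log2 -6.34 ± 1.54, edgeR adjusted p = 0.0039). With Rgs18, a regulator of G protein signalling in platelets (log2 -5.31), it was among 5 lower calls of 8 measurable megakaryocyte genes (median -2.94; 4 without young library 2 and 3 without any of the 3 old libraries or young library 1 or 3). Hba-a1, of alpha globin, was at 38.2, 20.1 and 27.8 CPM against 0, 0 and 1.89 CPM (log2 -5.63 ± 1.68, edgeR adjusted p = 0.0121), and not called without old library 1 or 2 (-4.95 and -5.02). Without old library 3 both old libraries left are at 0, and no fold is given. Its counts can be split with the near-identical Hba-a2. Nkg7, of cytotoxic granules, was at 79.5, 163 and 76.5 CPM against 0.779, 4.48 and 1.41 CPM (log2 -5.59). Clu, listed among genes reported higher in old stem cells, was at 185, 162 and 148 CPM in young and 20, 4.48 and 17.45 CPM in old (log2 -3.56 ± 1.07, edgeR adjusted p = 0.0128). Of the 35 tested genes on that list 3 were called lower, all measurable, and 9 higher, none of which was above background in 2 old libraries. A gene that rises from a low young level is not measurable, so the measurable members cannot show such a rise. Of 12 measurable interferon and MHC class I genes 3 were lower (1 without old library 1 or 3), with Ifi27 at 143.7, 120.9 and 120.2 CPM against 1.56, 2.85 and 9.90 CPM. Mrfap1, Tmem14c and Snhg12 complete the large falls, at log2 -5.85, -5.67 and -4.66.

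**Figure D5:**
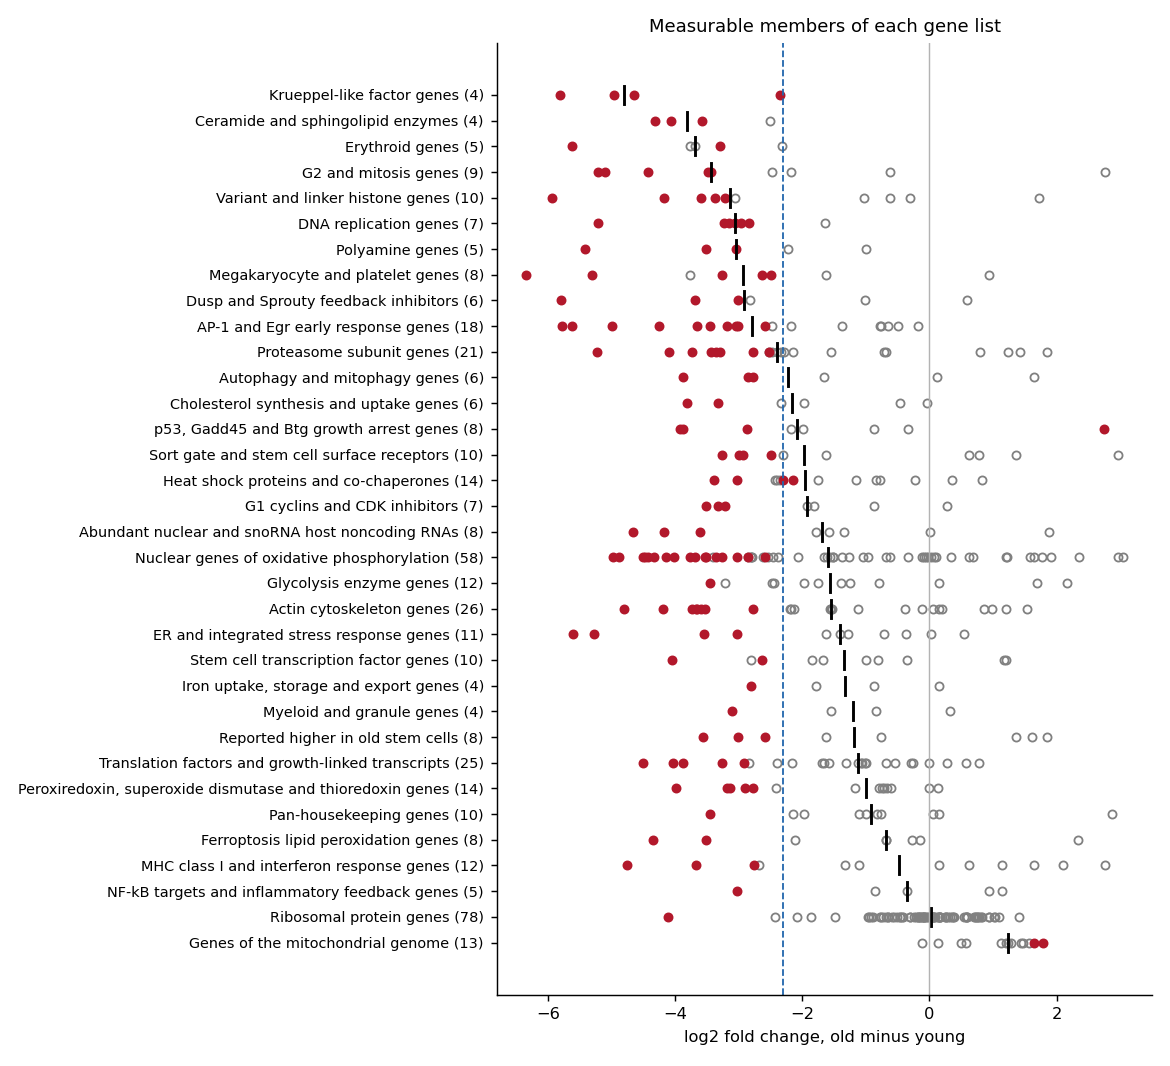
Log2 fold change (old minus young) of the measurable members of each gene list with at least 4 of them, the number in brackets; red points were called, grey circles were not, black bars are medians and the blue dashed line is the median of all 1669 measurable genes, -2.30. Krueppel-like factors stand lowest at a median of -4.81, ribosomal protein genes at 0.02 and mitochondrial genes highest at 1.24, a sign that turns under TMM scaling and DESeq2.

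The 131 genes higher in old and above background there hold 41 protein-coding genes, 50 pseudogenes, 16 antisense genes and 12 lincRNAs. The shares of these types over all tested genes are not given, so the numbers are no result about the types. Of the 131, 47 were also above background in at least 2 young libraries. All 13 genes of the Gm10800 family were called higher, 12 of them above background. All but the lincRNA Gm26870 are annotated as protein-coding, so members of this family are among the 41. Gm10800 had 515, 1770 and 1499 CPM in young and 108700, 142500 and 217700 CPM in old libraries, a log2 fold change of 6.95 ± 0.60 (edgeR adjusted p = 0.0021). Gm21738 (80.6, 272 and 237 CPM against 16070, 20560 and 32260 CPM) and Gm10801 (29.1, 147 and 120 CPM against 8089, 9572 and 16490 CPM) changed alike (log2 6.87 and 6.85). Gm10800, Gm10801, Gm21738 and Gm26870 were called in all 23 alternatives. The family took 0.0656% to 0.230% of counts in genes in young and 10.6% to 17.3% in old libraries. Set against the counts outside genes, it had 8.87 to 16 counts per 1000 in young and 21.6 to 31.9 in old libraries. These ranges did not overlap either (exact permutation p = 0.1). The density of reads outside exons was 1.31 to 1.835 times that over olfactory receptor exons in young libraries. In old libraries it was 0.980 to 1.02 times, so this divisor is not alike in the 2 groups. The family was not set against the olfactory receptor background. The part of the reads outside genes in this result was not tested.

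Other higher genes varied between old libraries. Sfi1, a centrin-binding protein of the spindle pole, was at 66.9, 119 and 91.5 CPM in young and 1747, 1193 and 3772 CPM in old libraries (log2 4.60 ± 0.90, edgeR adjusted p = 0.0021), and was not called under TMM scaling or DESeq2. Gm26917, a noncoding gene model, was at 14.9, 39.6 and 19.7 CPM against 821, 1405 and 999.4 CPM (log2 5.44). Napsa, an aspartic protease of the lysosome, was at 211, 61.9 and 77.7 CPM against 2210, 360 and 1355 CPM (log2 3.48 ± 1.03, edgeR adjusted p = 0.0113), and lost its call without young library 2 or 3 (3.18 and 3.26). Capn8, a calpain protease, had at most 0.179 CPM in young and 667, 11.8 and 1887 CPM in old libraries. Slc22a20, a transporter of organic anions, had at most 0.143 CPM in young and 233, 168 and 25.9 CPM in old. Anpep, the myeloid surface peptidase CD13, was at 0.149 to 2.68 CPM against 16.4, 704 and 1381 CPM. Dapl1, at 0 in 2 young libraries, had 19.2, 3.26 and 309 CPM in old ones, and Gm16135, at 0 in all young libraries, had 58.4, 2.85 and 16.04 CPM. No fold is given for Capn8, Slc22a20, Dapl1 or Gm16135, since a fitted fold there depends on the model. S100a8, a neutrophil protein, had 0.284, 10.2 and 0.973 CPM in young and 11.9, 9.78 and 880 CPM in old (log2 6.29 ± 2.13, edgeR adjusted p = 0.0238), a rise that rests on old library 3, without which it was 1.51. The 7 markers of neutrophils and monocytes summed to 72.5, 58.7 and 969 CPM in old libraries.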

How the data were processed

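The deposited values are whole-number read counts per gene, which the authors made from paired reads of poly(A)-tailed, PCR-amplified RNA. Per the submitters' processing notes, the build was mm10, and the tools named are HTSeq 0.10.0 (a read counter), STAR 2.6.1d (an aligner), edgeR 3.24.3 and, for trimming, Trim Galore 0.6.2. Which annotation and strand setting served is not given in the sources used here, so antisense, overlapping and near-identical genes are uncertain. The 5 lines that name no gene were left out of library sizes and tests. The line for counts outside genes held 6.51% to 12.5% of counts in young and 80.8% to 87.7% in old libraries. The line for ambiguous counts held a further 5.37% to 5.48% in young and 0.619% to 1.035% in old libraries.

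Gene symbols and exon lengths came from GENCODE M21 (52403 of 52550 identifiers). Background per exon base was the density over 1122 olfactory receptor genes, without the densest 1%. Old and young wild-type libraries were compared with edgeR 4.0.16 in R 4.3.3 (quasi-likelihood test, library size less background, Benjamini-Hochberg adjusted p of 0.05). DESeq2 1.42.0, limma 3.58.1, other scalings, filters and backgrounds, and fits without 1 library were alternatives. Levels and shares of single libraries carry counting error of the depths given, and reads after PCR are not independent molecules.

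The text names the 10 largest falls of measurable genes with ranges apart, the 10 largest rises above background with ranges apart, the 4 most abundant members of each of 43 lists and a fixed set, or a subset of these. Genes given as examples of detection in 1 old library were picked after their values were seen. Comparison, members and lists were chosen with earlier results of these data known.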

Additional observations from a re-analysis of the deposited data

How the results depend on the processing

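DESeq2 called 6278 genes lower, 6269 of them above background, with 1531 of the measurable genes and, among the 289 genes above background in all libraries, 255 lower and 17 higher. TMM over all genes gave 4772, 4766, 1392, 213 and 13 in that order. Of all calls, 6.91% were lower in the fit of the report, 42.4% by DESeq2 and 38.6% with TMM. DESeq2 and TMM, in that order, turned the fold changes of Hsp90aa1 (-3.60 and -3.26), Gadd45g (-0.98 and -0.68), Gapdh (-3.79 and -3.39), Actb (-3.85 and -3.47), mt-Cytb (-2.17 and -1.80), mt-Rnr2 (-2.11 and -1.72), mt-Nd5 (-3.36 and -2.95), mt-Nd1 (-2.61 and -2.28) and Napsa (-0.76 and -0.18). DESeq2 also turned Hlf (-3.45) and Cd34 (-2.75), and leaving out old library 3 turned Hlf (-3.58; up to 1.75 without another library). Uncalled fold changes that turned without 1 library include Esam (-3.19) and Procr (-2.97) without old library 1. Without old library 2, Cd34 (-2.68) and Hsp90aa1 (-0.17) turned, and Jund did without old library 3 (0.03) or young library 3 (0.22). Total counts gave 1217 lower (1216 above background; 17 in all 6 libraries), upper-quartile factors 1332 and 1331, and library sizes without the Gm10800 family, an alternative chosen after seeing the data, 483 and 483. Lower genes in all 6 libraries were 14 with TMM from those genes, 16 with all 9 libraries and 15 with limma-voom.

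Among the alternatives run, the choice of genes fitted moved the number of calls most, from 11226. Restriction to genes above background in 2 libraries of a group left 9 calls, 1 lower, which is measurable, and 8 higher. In all 6 libraries 0 were then lower and 7 higher. The genes called lower in the fit of the report had a median SE of 1.10 there and 1.06 after restriction. Their median edgeR adjusted p was 0.021 and 0.146. Subtraction left 85 calls, 32 lower and 53 higher (11 above background), with 22 lower measurable genes and 1 lower and 7 higher in all 6 libraries; here 37.7% of calls were lower. Both together, chosen after seeing the data, left 5 calls, 1 lower and measurable and 4 higher, with 0 lower and 4 higher in all 6. Vomeronasal receptor genes as background gave 2636 higher genes above background, 15 lower in all 6 libraries and 4168 measurable genes, 26.0% of them in no old library. At 10 times background there were 46 higher and 840 measurable genes, and at 3 times 401 and 2518. edgeR's own filter made 20631 calls (19775 higher), and no filter 34377 (33486 higher). An adjusted p of 0.01 left 197 lower genes, all 197 above background, 190 measurable and 4 in all 6 libraries.

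Fits without 1 library made 6213 to 11872 calls, 365 to 858 lower (the same above background), 5664 to 11194 higher and 62 to 118 higher above background. Of the 1669 measurable genes, 346 to 595 were called lower in these fits. Defined anew without 1 library, 1669 to 2765 genes were measurable. Of the genes above background in all 6 libraries, 5 to 22 were called lower. The replicate block, with the replicate number as a term, called 484 genes lower, all 484 above background. Deviations of same-numbered libraries from their group means correlated at 0.0031, 0.0004 and 0.0141. No litter or day that they might share is given, and whether they share one was not tested. The causes of these shifts were not tested except where stated. In the old libraries most tested genes are at background. For genes that are not measurable there, a lower level cannot be told apart from too few reads.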

Other observations

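Ddx3y, a Y-linked RNA helicase, was at 10.6, 10.8 and 56.8 CPM in young and 918, 286 and 63.2 CPM in old libraries, so every library of either age held reads of it. Mecom, a transcription factor that stem cells need, was at 19.4, 2.11 and 1.46 CPM in young and 20.3, 25.7 and 76.9 CPM in old libraries, where it was not above background. Hsp90ab1, a constitutive chaperone, was at 2819, 2767 and 2632 CPM in young and 523, 1319 and 2742 CPM in old libraries, with old library 3 inside the young range and the others below it.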
